A study of Caenorhabditis elegans with 2 samples.

Results

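Peaks of the T-box factor TBX-9 were examined at 10 genes of the epidermis of Caenorhabditis elegans: 7 regulators of epidermal fate and development (lin-26, elt-1, elt-3, nhr-23, nhr-25, grh-1 and blmp-1) and 3 genes of epithelial junctions and apical secretion (ajm-1, vab-10 and che-14). They are 10 of the 19973 protein-coding genes on the nuclear chromosomes, and were listed by name for their roles in the tissue. The list was made with earlier results of these data known, so its counts beside a background are descriptions only. A peak was assigned to a gene when its summit, the base of highest signal, lay inside the gene or within 2000 bp of either end; this stretch is called the gene's window. The experiment is a chromatin immunoprecipitation followed by sequencing (ChIP-seq), with 2 biological replicates of 1 group and no second condition. All animals were of strain OP636, genotype unc-119(tm4063) III; wgIs636, in which an integrated transgene makes TBX-9 fused at its C terminus to GFP and FLAG, and the protein was precipitated with an antibody to GFP. The worms were whole young adults of both sexes, pooled, 63 h after synchronization as starved L1 larvae. The same transgenic strain gave both replicates; chromatin from all tissues was mixed, so a peak cannot be assigned to epidermal cells, and a control library was not analysed here.

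The worm epidermis is an epithelium that secretes the cuticle, shapes the embryo and is remodelled at each moult. GATA factors specify it in the embryo, LIN-26 maintains its fate, and nuclear receptors drive later steps including moulting; apical junctions and hemidesmosome-like attachments hold its cells to each other and to muscle. T-box factors bind DNA through a conserved domain that recognises sites built on the sequence GGTGTGA, and TBX-8 and TBX-9 are known to act together in embryonic epidermal morphogenesis and body-wall muscle patterning.

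4 deposited lists were used. The pooled list holds 30000 peaks, the replicate 1 list 25659 and the replicate 2 list 30000; these are relaxed lists, which hold weak peaks and background so that reproducibility can be computed from them. The fourth is the authors' optimal list, of the 169 peaks that passed their threshold on the irreproducible discovery rate (IDR). Each peak carries a signal value given by the authors, and here it also has a rank, with rank 1 the highest signal of its list. The lowest signal was 18.06 in the pooled list, 13.68 in replicate 1 and 9.372 in replicate 2, and the lists' scales differ, so signals are compared within a list only. The files give no read counts, and the sequencing depth is unknown.

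None of the 10 genes had an IDR peak. Under the same assignment 1.48% of all protein-coding genes had one. With 10 genes and a background that low, a count of 0 does not set them apart. The closest IDR summit lay 32.6 kb from the nhr-25 gene and 39.6 kb from che-14; at the other 8 genes it was between 100.5 kb and 2149.7 kb away. Every pooled peak of the 10 genes ranked 211 or lower down, and IDR peaks overlapped 86.7% of nuclear pooled peaks ranked 1 to 100, 18% of those ranked 201 to 300 and 10% of those ranked 301 to 400.

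All 10 genes had at least 1 relaxed pooled peak, 9 had a replicate 1 peak and 10 a replicate 2 peak; among all protein-coding genes the shares were 80.1%, 78% and 81.9%. Overlapping peaks in both replicates (1 bp or more) were present at 7 of the 10 genes, against 49.3% of all protein-coding genes; the 3 without were lin-26, blmp-1 and che-14, which are also 3 of the 8 shorter genes, and of protein-coding genes of such window length 57.3% had overlapping peaks. A pooled peak ranked 1000 or higher up was present at 2 of the 10, ajm-1 and vab-10, against 8.23% of all protein-coding genes. At rank 5000 or higher up it was still those 2, against 29.9%. Within the replicates, a peak ranked 1000 or higher up was present in replicate 1 at ajm-1 and vab-10 (2 of 10, against 8.08% of all protein-coding genes) and in replicate 2 at ajm-1, elt-3 and nhr-25 (3 of 10, against 8.1%). The genes differ in length, and so in room for peaks: ajm-1 and vab-10 have windows of 34.67 and 61.57 kb, and the other 8 have windows of 6.57 to 13.96 kb. Of the 6718 protein-coding genes with windows in the range of the 8 shorter genes, 35.4% had a pooled peak ranked 5000 or higher up, and of the 8 none did; in replicate 1 the share was 36.3%, and again none of the 8 did. In replicate 2, 3 of the 8 had a peak ranked 5000 or higher up (lin-26, elt-3 and nhr-25), against 36% of genes of that window length, and 2 of the 8 had one ranked 1000 or higher up, against 9.59%. Over all 10 genes, 5 had a replicate 2 peak ranked 5000 or higher up, against 30.1% of all protein-coding genes. With the distance widened to 5000 bp, the strongest pooled rank was 4162 at lin-26 and 1764 at che-14. At that distance 2 of the 8 had a pooled peak ranked 5000 or higher up. The share of protein-coding genes was not computed at 5000 bp, so this count cannot be set beside the 35.4%. Of the 58 protein-coding genes with windows at least as long as that of ajm-1, 19% had a pooled peak ranked 1000 or higher up and 75.9% one ranked 5000 or higher up.

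**Figure D1:**
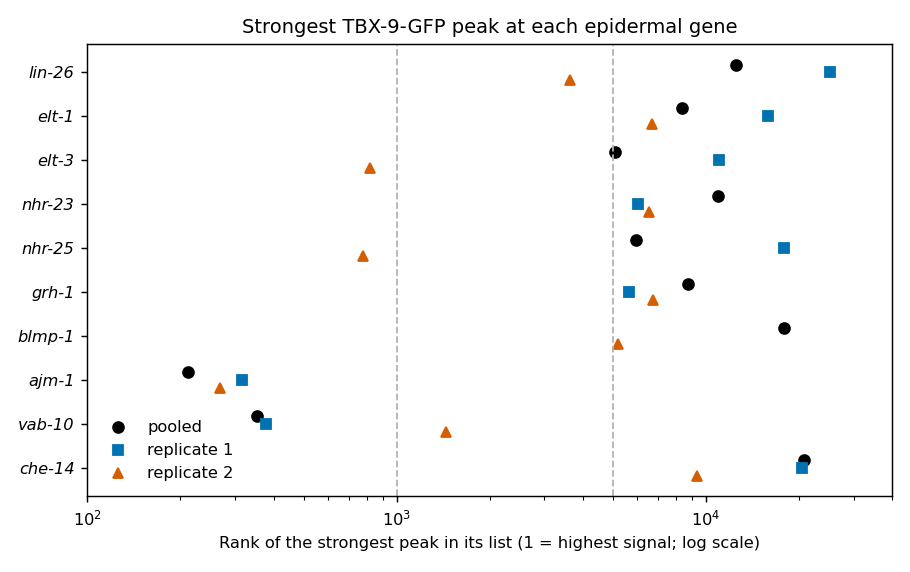
Rank of the strongest peak at each of the 10 genes (rows) in the pooled list (circles), replicate 1 (squares) and replicate 2 (triangles); the horizontal axis is logarithmic, rank 1 is the highest signal, and dashed lines mark ranks 1000 and 5000. ajm-1 lies between ranks 211 and 316 in all 3 lists, while elt-3 and nhr-25 are at ranks 822 and 778 in replicate 2 and at 10983 and 17789 in replicate 1; blmp-1 has no replicate 1 peak.

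Sequences are shown for the places where the 10 genes meet the T-box core or their strongest peaks. The first pair are 201-base stretches centred on the strongest pooled summits of elt-1 (chrIV:9613300-9613500) and elt-3 (chrX:13940295-13940495), both on the minus strand of WBcel235, from RefSeq. They are shown because each holds a match to the core, in capitals; in elt-3 the capitals include an A before it.
elt-1: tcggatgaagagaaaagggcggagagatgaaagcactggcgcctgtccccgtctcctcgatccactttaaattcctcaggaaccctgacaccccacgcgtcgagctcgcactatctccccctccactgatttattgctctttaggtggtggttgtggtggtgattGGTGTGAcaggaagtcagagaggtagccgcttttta
elt-3: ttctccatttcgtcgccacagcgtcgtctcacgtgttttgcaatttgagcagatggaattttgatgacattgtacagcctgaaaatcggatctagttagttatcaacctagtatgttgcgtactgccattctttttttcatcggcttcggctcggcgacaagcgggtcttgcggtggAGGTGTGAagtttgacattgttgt
The core match lay 68 bp from the summit in elt-1 and 81 bp from it in elt-3, away from the centre of the stretch in both.

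The next 3 are tRNA-Gln genes inside an ajm-1 intron, at its 2 strongest peaks. They are shown because the stretch holds near-identical copies. Capitals mark the 3 positions at which the 5 copies differ. H08J11.t1 is at chrX:9090830-9090901, plus strand; H08J11.t2 at chrX:9091310-9091381, plus strand; and H08J11.t3 at chrX:9091557-9091628, minus strand.
H08J11.t1: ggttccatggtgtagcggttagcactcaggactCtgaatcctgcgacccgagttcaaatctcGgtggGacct
H08J11.t2: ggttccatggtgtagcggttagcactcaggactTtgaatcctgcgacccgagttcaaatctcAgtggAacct
H08J11.t3: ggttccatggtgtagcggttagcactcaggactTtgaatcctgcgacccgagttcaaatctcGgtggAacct
H08J11.t4 and H08J11.t5 have the same sequence as H08J11.t3, so the 5 genes of 72 bp, spread over 1002 bp, carry 3 distinct sequences. The sequence of H08J11.t3 occurs 16 times in the nuclear genome and that of H08J11.t1 5 times, while that of H08J11.t2 occurs 1 time. How the authors placed reads that match several copies is not given in the sources used here, and its part in these peaks was not tested.

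Among the regulators, elt-3 had the strongest pooled peak. It encodes a GATA factor of the major epidermis that acts downstream of ELT-1 (WBGene00001251, chrX:13934874-13941216, plus strand). Its window held 7 pooled, 3 replicate 1 and 6 replicate 2 peaks. The strongest pooled peak, in an intron at 13940395, had a signal of 35.67 and rank 5091. Replicate 2 had a peak at the same base, with signal 29.18, rank 822 and a q value of 0.00811, but replicate 1 had no peak there. The second pooled peak, at 13935869 in an intron, had signal 34.3 and rank 5863, and both replicates had it, with signals of 19.45 (rank 10983) in replicate 1 and 14.5 (rank 11477) in replicate 2. The third, at 13942339 downstream of the gene, had signal 30.46 and rank 8632 and again overlapped a replicate 2 peak (rank 3267) without a replicate 1 peak. The sites highest in replicate 2 were therefore not the sites present in both replicates. With 0.677 pooled peaks per kb, elt-3 was the densest of the 10 genes in the pooled list, and 13.3% of protein-coding genes were denser. The replicates differed: it had 0.290 per kb in replicate 1, with 43.1% denser, and 0.580 in replicate 2, with 18.5% denser.

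elt-1 encodes the GATA factor that specifies the epidermis in the embryo (WBGene00001249, chrIV:9614995-9620280, plus strand). Its strongest pooled peak lay upstream, at 9613400, 1595 bp from the closest annotated transcript start, with signal 30.77 and rank 8369. Both replicates had a peak that overlapped it, with signal 17 and rank 15873 in replicate 1 and signal 17.23 and rank 6703 in replicate 2. The replicate 2 summit, at 9613535, lay 135 bp from that of replicate 1 and had no core match within 100 bp. The pooled peak at 9613400 was the only one upstream of a gene, among the 10 genes, that overlapped a peak of either replicate. A second pooled peak in an intron, at 9615534, had rank 26537 and overlapped a replicate 2 peak at rank 21727. The counts of peaks differed between replicates, with 1 in replicate 1 and 5 in replicate 2.

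lin-26 encodes a zinc-finger protein needed to keep epidermal cells from other fates (WBGene00003012, chrII:7682198-7684764, plus strand). Its 1 pooled peak lay in a coding exon at 7682806, with signal 26.9 and rank 12480. Replicate 2 had it at 7682808, with signal 20.41 and rank 3623. The 1 replicate 1 peak, upstream at 7680999, was at another site, with signal 13.81 and rank 25201, near the bottom of its list; it lies inside the neighbouring gene lir-1, 46 bp from a lir-1 start and 1199 bp from the closest lin-26 start. The second replicate 2 peak, at 7681735 with rank 29990, also lies inside lir-1. The replicates thus shared no site at lin-26.

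nhr-25, an orthologue of fly FTZ-F1 with roles in epidermal development and moulting (WBGene00003623, chrX:13008493-13013964, plus strand), resembled elt-3. Its strongest pooled peak lay in an intron at 13010198, with signal 34.2 and rank 5923, and the noncoding RNA gene F11C1.15 lies within 250 bp of it. Replicate 2 had it with signal 29.52, rank 778 and a q value of 0.00811, and replicate 1 had no peak there. The only peak found in both replicates lay in a coding exon at 13013106, at pooled rank 10932, replicate 1 rank 17789 and replicate 2 rank 25583.

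nhr-23, the orthologue of mammalian ROR receptors and a regulator of moulting (WBGene00003622, chrI:7214745-7221299, plus strand), held 5 pooled peaks, all between ranks 10930 and 18330. The strongest, in an intron at 7217314, had signal 28.17, with rank 7768 in replicate 1 and 17704 in replicate 2. The others included the only summit of the 10 genes in a 5′ UTR, at 7214786, with signal 25.53 and no overlapping peak in either replicate. The strongest single-replicate peaks were in different places: replicate 1 had signal 23.39 and rank 6039 in the 3′ UTR at 7220964, and replicate 2 had signal 17.37 and rank 6526 in a coding exon at 7220248. The start of the neighbouring gene cnnm-4 was closer to the 3′ UTR peak than any nhr-23 start.

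grh-1 encodes the Grainyhead factor, whose family controls epidermal barrier genes (WBGene00001707, chrI:1258201-1268155, minus strand). It held 8 pooled, 6 replicate 1 and 5 replicate 2 peaks. The strongest pooled peak, in the 3′ UTR at 1258485, had signal 30.35 and rank 8709, with rank 5647 in replicate 1 and no peak in replicate 2; the start of Y48G8AL.15 was closer to it than any grh-1 start. The peak next in signal, in an intron at 1261510, had signal 29.83 and rank 9231 and was the only grh-1 site in both replicates, with signals of 18.42 (rank 12783) in replicate 1 and 12.48 (rank 17059) in replicate 2.

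blmp-1 encodes a zinc-finger repressor of the Blimp1 family that acts in epidermal developmental timing (WBGene00003847, chrI:10409302-10414773, plus strand), and had the fewest peaks. Its 1 pooled peak, in a coding exon at 10412885, had signal 23.39 and rank 17904, and replicate 2 had it with signal 18.54 and rank 5189. Replicate 1 listed no peak in the window.

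**Figure D2:**
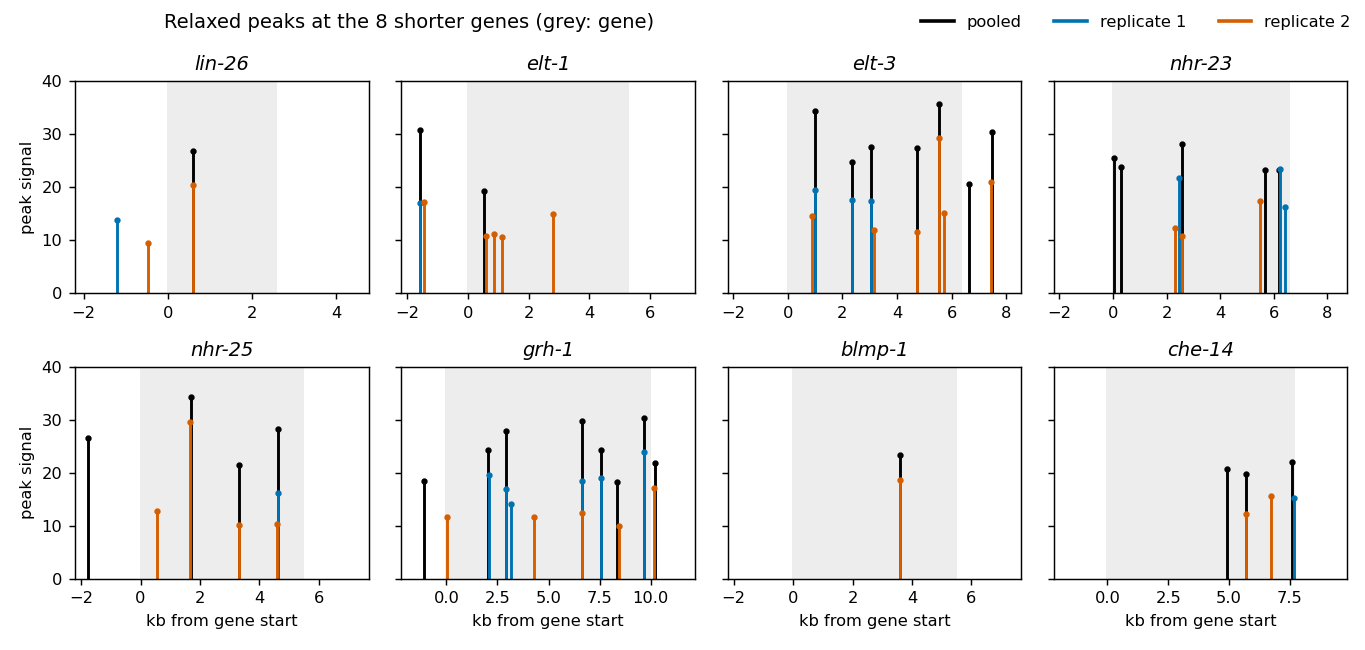
Relaxed peaks at the 8 genes with the shorter windows, 1 panel per gene: each stem is a peak at its distance in kb from the annotated gene start, in gene direction (horizontal axis), with its signal (vertical axis), black for the pooled list, blue for replicate 1 and orange for replicate 2, and the gene body in grey. No pooled signal exceeds 35.67, at elt-3.

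The junction genes ajm-1 and vab-10 carried the strongest peaks. ajm-1 encodes a coiled-coil protein of the apical junction, the belt that seals worm epithelia (WBGene00000100, chrX:9082946-9113619, plus strand). It held 14 pooled, 12 replicate 1 and 9 replicate 2 peaks, and 9 of the replicate 1 peaks overlapped a replicate 2 peak. The strongest pooled peak, in an intron at 9091565, had signal 88.68 and rank 211; it had signal 49.59 and rank 316 in replicate 1 and signal 38.13 and rank 269 in replicate 2. The summits of the 3 lists lay within 1 bp of each other, inside the tRNA gene H08J11.t3. The second, in the same stretch at 9090785, had signal 73.12 and rank 393, with rank 381 in replicate 1 and 809 in replicate 2; it lay 45 bp from H08J11.t1 and 87 bp from H08J11.t5.

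Away from the tRNA genes, the strongest ajm-1 peak lay in a coding exon at 9106458, with signal 51.47, rank 1306 and a q value of 0.0295. Replicate 1 had it with signal 29.56 at rank 2472, and replicate 2 with signal 22.05 at rank 2669. A neighbouring pooled peak at 9106676, of signal 36.01 and rank 4906, overlaps the same replicate peaks. The fourth pooled peak, at the gene's 3′ end at 9113168, had signal 43.77 and rank 2356, with rank 1660 in replicate 1 and 20935 in replicate 2, and the start of C25A11.2 was closer to it than any ajm-1 start.

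vab-10 encodes a spectraplakin that links the cytoskeleton to the attachments between epidermis and muscle (WBGene00006876, chrI:11747424-11804991, minus strand). It is the longest of the 10 genes and held 29 pooled, 23 replicate 1 and 32 replicate 2 peaks. The strongest pooled peak, in an intron at 11803259, had signal 75.07 and rank 354; it had signal 47.69 and rank 379 in replicate 1 and signal 25.6 and rank 1444 in replicate 2. It lay 57 bp from the tRNA-Ser gene T02G6.t1 at chrI:11803316-11803397, and the replicate summits lay 53 and 52 bp from that gene. The second, in an intron at 11773637 beside the noncoding RNA gene ZK1151.4, had signal 58.78 and rank 828, with rank 1030 in replicate 1 and 4525 in replicate 2.

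The next 3 vab-10 peaks ranked higher up in replicate 1 than in replicate 2. The intronic peak at 11791026 had signal 47.39 and pooled rank 1765, with rank 1417 in replicate 1 and 12595 in replicate 2. The peak at 11745765, downstream of vab-10 and inside the gene Y47H9B.2, had pooled rank 2141, with rank 1832 in replicate 1 and 19747 in replicate 2. The coding-exon peak at 11765354 had pooled rank 2565, with rank 1924 in replicate 1 and 20347 in replicate 2. In replicate 2 the vab-10 peak next in rank after the tRNA site was another, an intron peak at 11764181 with signal 20.54 and rank 3531; its pooled partner at 11764131 had rank 14966, and replicate 1 had no peak there.

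**Figure D3:**
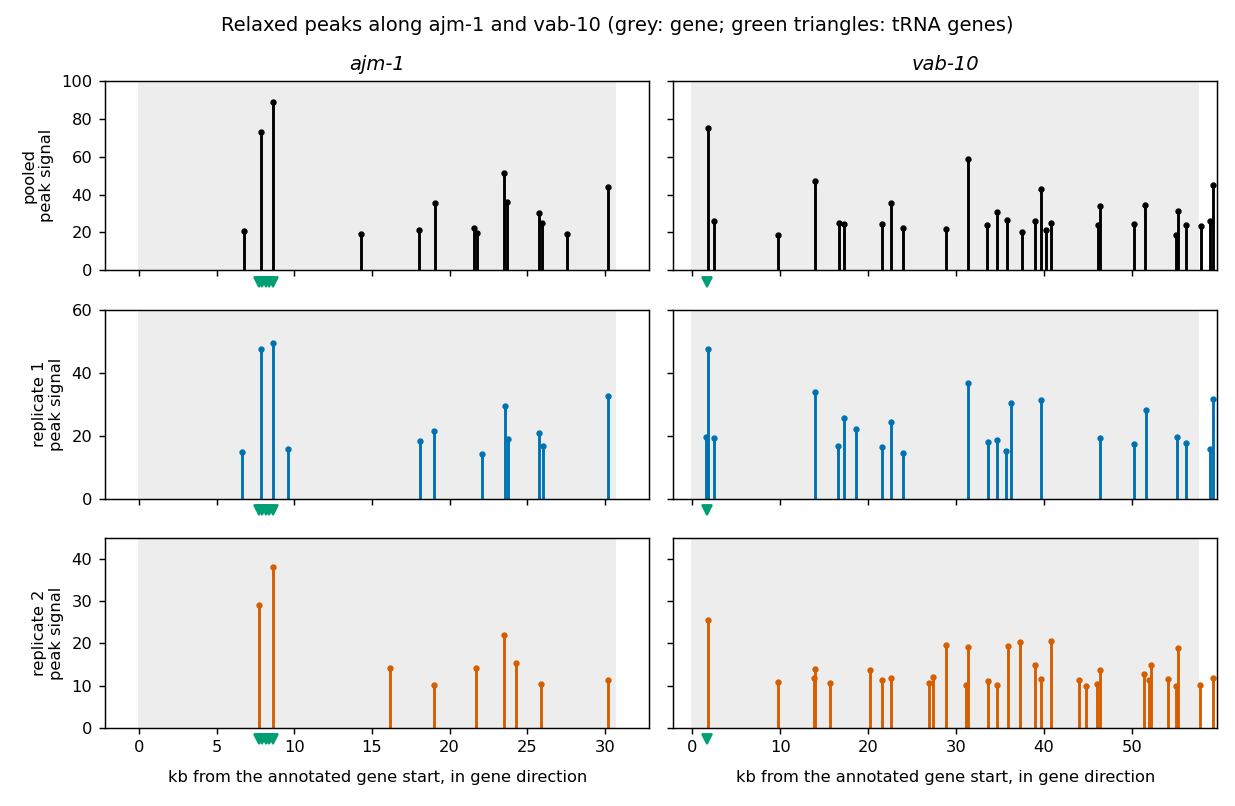
Relaxed peaks along ajm-1 (left) and vab-10 (right) in the pooled list (top), replicate 1 (middle) and replicate 2 (bottom): each stem is a peak at its distance in kb from the annotated gene start, in gene direction, with its signal on the vertical axis; the gene is grey and green triangles mark tRNA genes. The tallest stems, 88.68 and 75.07 in the pooled list, stand at the triangles in all 3 lists.

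che-14 encodes a Dispatched-like membrane protein needed for apical secretion in epithelia (WBGene00000493, chrI:5746633-5754306, plus strand), and its strongest pooled peak was the lowest of the 10. The strongest of 3 pooled peaks, in the 3′ UTR at 5754222, had signal 21.93 and rank 20741, with signal 15.28 and rank 20430 in replicate 1 and no partner in replicate 2; the start of ccpp-1 was closer to it than the che-14 start. The strongest replicate 2 peak, in a coding exon at 5753359, had signal 15.53 and rank 9370. No che-14 site was shared by the replicates.

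Few of these peaks carried a low q value in the authors' lists. At a q of 0.05 or lower there were 5 of 74 pooled peaks (6.76%), against 5.77% of all nuclear pooled peaks; 5 of 51 replicate 1 peaks (9.8%), against 5.81%; and 6 of 69 replicate 2 peaks (8.7%), against 10.1%. The 5 pooled ones were the first 3 of ajm-1 and the first 2 of vab-10, so 3 of the 5 lay at tRNA genes. At the 8 shorter genes only the replicate 2 peaks of elt-3 and nhr-25 reached that q. Their q of 0.00811 was also that of the replicate 2 peaks of ajm-1 at ranks 269 and 809, so it does not tell these peaks apart.

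The strongest peaks of both ajm-1 and vab-10 lay at tRNA genes. Of the 4 pooled peaks of the 10 genes ranked 1000 or higher up, 3 had a tRNA gene within 250 bp of the summit (75%, Wilson 95% interval 30.1% to 95.4%), against 20.1% of all nuclear pooled peaks of those ranks. The 4 peaks lie at 2 genes, and those of ajm-1 lie in the same stretch of tRNA-Gln genes. They are not independent, so the interval is too narrow and does not set them apart from the background. Over all ranks it was 3 of 74 (4.05%), against 1.74%. A whole tRNA gene lies within 2 of the 10 genes, against 1.14% of all protein-coding genes and 10.3% of the 58 with windows at least as long as that of ajm-1. Genome-wide, 227 of 612 nuclear tRNA genes (37.1%) had a pooled summit ranked 1000 or higher up within 250 bp. The part of the tRNA genes in the ranks of ajm-1 and vab-10 was not tested; without the peaks at tRNA genes the strongest pooled rank was 1306 at ajm-1 and 828 at vab-10.

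Counted per length of window, the 10 genes held 0.417 pooled, 0.287 replicate 1 and 0.389 replicate 2 peaks per kb, against 0.299, 0.256 and 0.299 per kb of the nuclear genome. The pooled density ranged from 0.106 per kb at blmp-1 and 0.152 at lin-26 to 0.573 at grh-1 and 0.677 at elt-3; over all protein-coding genes the median was 0.297 and the quartiles were 0.145 and 0.511. elt-1 had 0.215 peaks per kb in the pooled list, with 58.7% of protein-coding genes denser, 0.108 in replicate 1, with 75.9% denser, and 0.538 in replicate 2, with 21.7% denser.

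**Figure D4:**
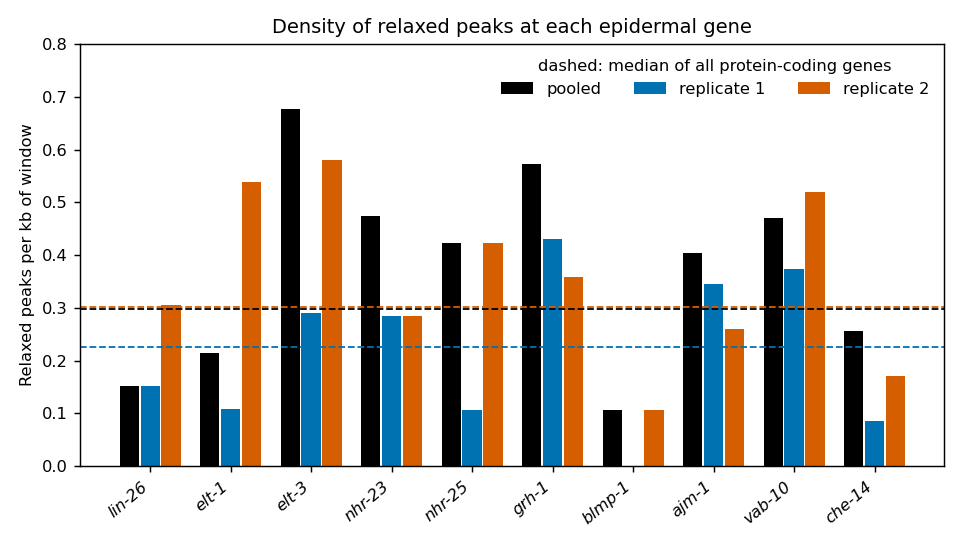
Relaxed peaks per kb of window (vertical axis) at each of the 10 genes in the pooled list (black), replicate 1 (blue) and replicate 2 (orange); dashed lines give the median of all protein-coding genes in each list. elt-3 and grh-1 have the tallest pooled bars, at 0.677 and 0.573, and the replicates differ most in height at elt-1.

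Agreement between the replicates was uneven. Of 51 replicate 1 peaks at the 10 genes, 31 overlapped a replicate 2 peak (60.8%, Wilson 95% interval 47.1% to 73%), against 44.8% of all nuclear replicate 1 peaks; of 69 replicate 2 peaks, 32 overlapped a replicate 1 peak (46.4%, 35.1% to 58%), against 39%. Each overlapping replicate 1 peak makes 1 pair, and some replicate 2 peaks are in more than 1 pair. Of the 31 overlapping pairs, 25 lay at ajm-1 and vab-10, as did 35 of the 51 replicate 1 peaks. The 8 shorter genes held the other 16 replicate 1 peaks and the rest of the pairs. The median distance between paired summits was 67 bp. Across the 31 pairs the signals had a Spearman rho of 0.364, a description of sites that share their libraries. Only 2 pairs ranked 1000 or higher up in both replicates, and both were the ajm-1 sites at tRNA-Gln genes. In all, 6 pairs ranked 5000 or higher up in both, all at ajm-1 or vab-10. Besides the tRNA sites these were the ajm-1 coding-exon peak, the vab-10 peak at ZK1151.4 and a vab-10 pair whose summits lay 374 bp apart. Thus 2 of the 10 genes had such a pair, against 12% of all protein-coding genes. The share was 31% of the 58 protein-coding genes with windows at least as long as that of ajm-1. It was 14% of those in the window range of the 8 shorter genes, none of which had such a pair. Of the 74 pooled peaks 31 overlapped a peak of both replicates (41.9%, 31.3% to 53.3%), against 39.5% of all nuclear pooled peaks; the 4 ranked 1000 or higher up all did, against 98.8%. Intervals of shares cover counting error only and treat the peaks of a gene as independent, which they are not. A background share outside such an interval is therefore no sign of a difference.

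**Figure D5:**
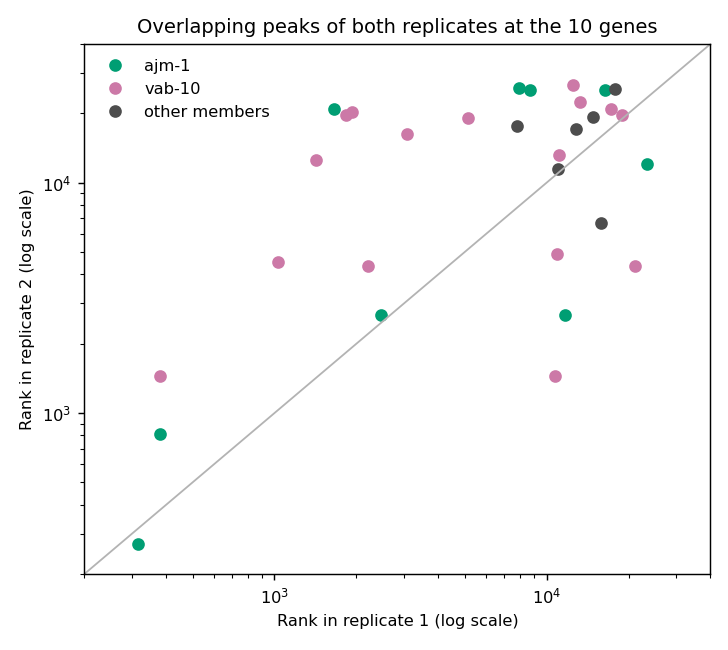
Rank in replicate 1 (horizontal) and replicate 2 (vertical) of the 31 overlapping peak pairs at the 10 genes, on logarithmic axes, coloured by gene: ajm-1 green, vab-10 pink and the others grey. The 2 points below rank 1000 on both axes are the ajm-1 sites at tRNA genes, and most other pairs lie beyond rank 5000 on at least 1 axis.

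Most summits lay in introns and coding exons. Of the 74 pooled summits 35 lay in introns (47.3%, where introns make up 48% of the windows), 26 in coding exons (35.1%, against 24.5% of the windows), 6 downstream (8.11%, against 11.3%), 3 upstream (4.05%, against 11.3%), 3 in 3′ UTRs (4.05%, against 4.29%) and 1 in a 5′ UTR (1.35%, against 0.634%). The median GC content within 100 bp of the summit was 45.8% for the 74 peaks, against 39.8% for all nuclear pooled peaks and 38.5% for the whole windows.

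The T-box core GGTGTGA, searched on both strands within 100 bp of each summit, was found at 3 of 74 pooled peaks (4.05%, Wilson 95% interval 1.39% to 11.3%), against 1.73% of all nuclear pooled peaks. With an A before it, it was found at 2 (2.7%), against 0.453%; these are a subset of the 3. The shorter GGTGTG, which every core match contains, was found at 7 (9.46%), against 6.07%. The 3 core matches were those of elt-1 and elt-3 printed above and 1 at a weak vab-10 peak at 11749940. That peak had signal 18.56 and rank 28626, and the match lay 4 bp from its summit. It overlaps a stronger pooled vab-10 peak with its summit at 11749737, of signal 31.4 and rank 7866, which held no core match within 100 bp. None of the 10 peaks ranked 5000 or higher up held the core, against 1.74% of all nuclear pooled peaks of those ranks. The windows held 18 core matches in all, of which 3 lay within 100 bp of a pooled summit; lin-26, blmp-1 and che-14 held none.

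The neighbourhood of these genes in the tissue was described with 2 further lists. They too were chosen with earlier results of these data known, so their counts beside a background are descriptions only. Of 35 other epidermal regulators and morphogenesis genes found in the annotation, 2 had an IDR peak, lin-29 and tbx-9, against the 1.48% of all protein-coding genes. lin-29 is a zinc-finger gene of the larval-to-adult switch of the epidermis. Its strongest pooled peak, in the 3′ UTR, had signal 132.3 and rank 48. The strongest peak anywhere in the lin-29 window had rank 48 in replicate 1 and 63 in replicate 2. tbx-9, the gene carried by the transgene, had signal 93.74 and rank 172, with the summit downstream of the gene. The part of the transgene in the peaks at tbx-9, and so in the IDR count of 2, was not tested. The next in rank was wve-1, an actin regulator of the WAVE complex, with signal 66.77 and rank 532, at a summit upstream of the gene. Other coding genes at the tbx-9 and wve-1 summits were not examined. In this list 31 of 35 genes had a pooled peak, against 80.1% of all protein-coding genes, and 29 had overlapping peaks in both replicates, against 49.3%. A pooled peak ranked 1000 or higher up was present at 4 of the 35, against 8.23%, and one ranked 5000 or higher up at 19, against 29.9%. The 4 include tbx-9, and among the 19 a peak at rank 4259 lies in the windows of neighbouring genes and was counted for each.

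Of 30 other genes of epithelial junctions, adhesion and apical secretion found in the annotation, none had an IDR peak, against 1.48% of all protein-coding genes. A pooled peak was present at 29 of the 30, against 80.1%, and overlapping peaks in both replicates at 20, against 49.3%. A pooled peak ranked 1000 or higher up was present at 4, against 8.23%, and one ranked 5000 or higher up at 14, against 29.9%. The strongest were at hmp-2, vab-19 and the intermediate filament gene ifa-3. That of hmp-2, the beta-catenin of worm adherens junctions, had signal 68.87 and rank 483 and lay upstream of the gene. That of vab-19, a component of the attachments between epidermis and muscle, had signal 68.45 and rank 489 and lay downstream. That of ifa-3 had signal 62.62 and rank 672 and lay upstream, at a tRNA gene. None of these summits lay inside the named gene, and other coding genes at them were not examined. The strongest peak anywhere in the window, whether or not at the pooled site, differed in rank between the replicates. It had rank 2783 in replicate 1 and 185 in replicate 2 at hmp-2, 472 and 8221 at vab-19, and 385 and 12350 at ifa-3. These lists were not adjusted for gene length.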

How the data were processed

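The authors' files are narrowPeak lists on ce11, the WBcel235 assembly, per the labels. In them the authors deposited a signal value, a −log10 q value and a summit position per peak; the p-value column is unset. What software aligned the reads and called the peaks is not given in the sources used here, and the files hold no read counts or depths. The pooled and IDR lists combine both replicates. The second set of lists, on the older assembly, was not used.

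Peaks were ranked by signal within each list over all chromosomes, ties taking the better rank. Summits were assigned to Ensembl release 115 genes, inside the gene or within 2000 bp; peaks that shared 1 bp or more were called overlapping. Sequence came from the RefSeq WBcel235 genome. The same counts were made over all protein-coding genes and over genes of like window length. No set test was run. Python 3.11.15, numpy 2.4.6, scipy 1.17.1 and matplotlib 3.10.9 were used. On simulated data, the planted number of summits was recovered in 200 of 200 windows, and the planted core in 200 of 200.

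The 10 genes and the further lists were chosen with earlier results of these data known. All 10 genes are named; of the further lists, the 3 genes with the strongest pooled peak and any gene with an IDR peak are named, and a neighbouring gene where a member summit lies in it or closer to its start. elt-5, disp-1 and ifa-2 matched no gene name in the annotation. The effect of other distances, rank limits, overlap rules and motif settings is given below.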

Additional observations from a re-analysis of the deposited data

How the results depend on the processing

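No gene of the 10 had an IDR peak under any alternative run. Other counts depended on how much of the relaxed lists was kept. Shares over all protein-coding genes were computed for the rank limit of 5000 and the single-replicate lists. They were not computed under the other alternatives, whose counts therefore have no background beside them. Among peaks ranked 5000 or higher up, 2 genes had a pooled peak, 2 had overlapping peaks in both replicates and 10 pooled peaks remained in the windows; among peaks at or above each list's median signal, 3 genes had overlapping peaks and there were 37 pooled peaks. When summits had to lie within 100 bp of each other, 4 genes had a site in both replicates, against 7 by overlap. Under that rule elt-1, elt-3 and nhr-23 had none. Without peaks at tRNA genes, an alternative chosen after seeing the data, 1 gene, vab-10, had a pooled peak ranked 1000 or higher up. The core was found at 1 peak within 50 bp of the summit, and the shorter GGTGTG at 7 within 100 bp. With a distance of 5000 bp the strongest pooled rank was 4162 at lin-26, 5674 at blmp-1 and 1764 at che-14, so that 2 of the 8 shorter genes passed rank 5000, where none did at 2000 bp; with 1000 bp it was 26537 at elt-1. The cause of these shifts other than the narrower or wider selection itself was not tested. With 1 replicate's list in place of the pooled list, 9 to 10 genes had a peak, there were 51 to 69 peaks, and 2 to 3 genes had a peak ranked 1000 or higher up. The median over the genes of the strongest rank, 8539 in the pooled list, was 4406 in replicate 2 and 10983 in replicate 1. The replicate 1 median leaves out blmp-1, which had no peak in that list. No paired analysis was possible because both replicates belong to 1 group and nothing was compared between groups.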
